A study of Saccharomyces cerevisiae with 8 samples.

Results

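Of 1637 Xrn1-sensitive unstable transcripts (XUTs) of budding yeast, 180 had no ribosome footprint in any of their listed open reading frames (ORFs), or 11% (95% exact binomial interval 9.52 to 12.6). They were chosen by the readout itself: the read counts of upf1 + CHX, upf1, WT + CHX and WT were summed over all ORFs of a XUT, and the XUTs whose sum was 0 were kept. The absence of reads is therefore the choice and not a finding. These 180 XUTs held 560 of the 13941 listed ORFs, or 4.02%, and are set below beside the 1457 XUTs with at least 1 read.

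XUTs of the nuclear genome are long noncoding RNAs made by RNA polymerase II that accumulate when the cytoplasmic exonuclease Xrn1 is missing. Many run antisense to a gene. Because Xrn1 acts in the cytoplasm, they can meet ribosomes there, and short ORFs near their 5′ ends can be read. A XUT that is translated can also become a substrate of nonsense-mediated decay (NMD), the pathway that removes RNAs whose translation ends early and that needs the helicase Upf1. Ribosome profiling (Ribo-seq) sequences the RNA pieces that ribosomes protect from nuclease, so a XUT with no read left no trace of a ribosome in the table.

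The 4 groups were upf1 mutant cells treated for 15 min with cycloheximide (CHX, which stalls elongating ribosomes), untreated upf1 mutant cells, wild-type (WT) cells given the same treatment, and untreated WT cells, with 2 biological replicates each. All were BY4741, a MATa laboratory strain carrying met15Δ0, ura3Δ0, leu2Δ0 and his3Δ1, in YPD cultures at 30 °C harvested at OD600 0.5. The mutant carried upf1*::kanMX4 in addition. The deposited table merges the 2 replicates of a condition into 1 column, which leaves every count below without an error between replicates and allowed no test between conditions. The columns held 44035 reads in upf1 + CHX, 26791 in upf1, 35728 in WT + CHX and 5897 in WT. By condition, 309 XUTs had no read in upf1 + CHX, 491 in upf1, 326 in WT + CHX and 834 in WT.

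The ORF sequences show the kinds of XUT that went unread. They are given from the R64 genome, start codon and stop codon in capitals, with the listed coordinates, which end before the stop codon. First come an ORF within a Ty1 retrotransposon, whose listed copies are identical, and the first ORFs of a pair of XUTs near the ends of chromosomes 9 and 10, which share every base. Then come the longest ORFs of 4 XUTs found once in the genome, that of the mitochondrial XUT, and the 15-nt ORFs that are the sole ORF of their XUTs.
XUT0966, within Ty1, chr2:260020-260190, minus strand: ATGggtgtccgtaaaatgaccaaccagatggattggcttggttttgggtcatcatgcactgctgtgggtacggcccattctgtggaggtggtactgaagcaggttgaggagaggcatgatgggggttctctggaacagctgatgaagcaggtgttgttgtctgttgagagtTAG
XUT0464, chr9:4098-4172, plus strand: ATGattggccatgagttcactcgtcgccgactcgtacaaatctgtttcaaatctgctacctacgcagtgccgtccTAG
XUT0507, chr10:4081-4155, plus strand: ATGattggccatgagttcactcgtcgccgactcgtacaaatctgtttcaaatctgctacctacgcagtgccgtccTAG
XUT0400, opposite RIE1, chr7:991553-991678, plus strand: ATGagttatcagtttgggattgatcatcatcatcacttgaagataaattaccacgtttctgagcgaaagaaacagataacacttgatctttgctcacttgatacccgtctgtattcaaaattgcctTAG
XUT1544, opposite TSA1, chr13:220473-220676, minus strand: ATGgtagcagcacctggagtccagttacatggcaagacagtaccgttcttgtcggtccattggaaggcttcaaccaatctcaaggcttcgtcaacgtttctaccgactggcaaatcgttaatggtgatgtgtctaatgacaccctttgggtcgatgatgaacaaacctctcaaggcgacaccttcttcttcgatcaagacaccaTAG
XUT1709, opposite HIS3, chr15:721999-722205, minus strand: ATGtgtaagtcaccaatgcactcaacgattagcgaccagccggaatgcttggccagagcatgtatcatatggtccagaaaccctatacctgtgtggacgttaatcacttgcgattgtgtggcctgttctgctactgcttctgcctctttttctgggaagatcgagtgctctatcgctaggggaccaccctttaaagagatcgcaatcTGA
XUT0700, near SPO20, chr13:307096-307344, plus strand: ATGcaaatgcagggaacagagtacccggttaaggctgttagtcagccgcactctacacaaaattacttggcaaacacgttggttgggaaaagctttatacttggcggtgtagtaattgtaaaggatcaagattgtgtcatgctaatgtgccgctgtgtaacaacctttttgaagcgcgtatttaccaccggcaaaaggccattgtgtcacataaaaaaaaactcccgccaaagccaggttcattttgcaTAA
XUT1811, opposite ATP6, mitochondrial genome, minus strand: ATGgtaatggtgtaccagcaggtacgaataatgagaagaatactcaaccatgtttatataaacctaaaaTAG
XUT0092, opposite SGF29, chr3:103701-103715, plus strand: ATGacaattgcaggaTAA
XUT1081, opposite YDR182W-A, chr4:829198-829212, minus strand: ATGcaaactgtttggTGA
XUT1247, opposite PRP31, chr7:667709-667723, minus strand: ATGacccaaggagatTAG
XUT1418, near ASH1, chr11:94163-94177, minus strand: ATGagtgaacaagaaTAA

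These ORFs differ in how often their sequence occurs in the genome. The 171-nt Ty1 ORF of XUT0966 is listed 13 times, in 13 XUTs, and none of the 13 copies had a read. The first ORF of XUT0464 and XUT0507 is listed 11 times, in 11 XUTs that all belong to the 180, again with 0 reads over the copies. The ORFs of XUT0400, XUT1544, XUT1709, XUT0700 and XUT1811 are each listed once, as are the 15-nt ORFs.

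To measure this for every XUT, windows of 28 nt, about the length of a footprint, were started at each base of the listed ORFs and called unique when they occurred once over both strands of the R64 genome. Of the 62 XUTs with no unique window, 60 had no read, or 96.8% (95% exact interval 88.8 to 99.6). Of the 1411 XUTs whose windows were all unique, 105 had no read, or 7.44% (6.13 to 8.94). In between, 11 of 66 XUTs with some but under 50% unique windows had no read (16.7%), and so did 4 of 95 with 50% or more but not all (4.21%). The intervals cover counting over transcripts only, and copies of a repeat are not independent of each other. How reads that match several places were counted is not given in the sources used here. What part repeated sequence had in the missing reads was not tested.

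**Figure D1:**
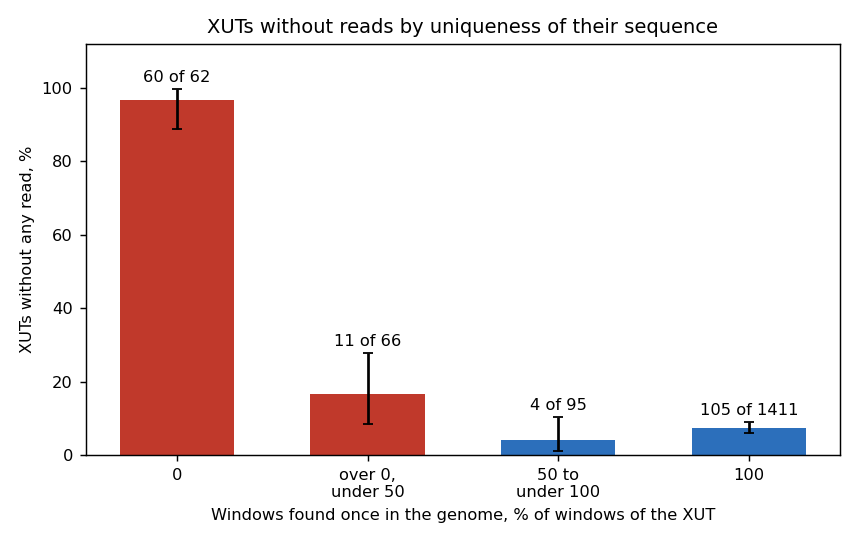
Share of XUTs without any read (y axis, %) by the share of their 28-nt windows that occur once in the R64 genome (x axis), with 95% exact binomial intervals as lines and counts above the bars. The bar of XUTs with no unique window stands at 60 of 62, far above the other 3 bars, which lie between 4.21% and 16.7%.

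The same counts can be described ORF by ORF inside XUTs with reads. The rule requires at least 1 read in each of these XUTs, and most of their ORFs were of unique sequence, so the shares are not independent of it and support nothing further. There, 34 of 351 ORFs with no unique window had a read (9.69%), against 8114 of 12527 ORFs with all windows unique (64.8%). The ORFs with no unique window were shorter, with a median of 36 nt against 48 nt, and lay in 76 XUTs.

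The 2 XUTs with no unique window that had reads had very few. XUT0462, inside a Ty1 element on chromosome 8, had 2 reads, both in upf1, and XUT0461, 3857 nt from the nearest coding sequence (CDS), YHR212W-A, had 1 read, also in upf1. Among all 57 XUTs with reads and under 50% unique windows, the sums ran from 1 to 535 with a median of 13, and 16 of them had 1 or 2 reads.

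By this measure the 180 XUTs fell into 71 with under 50% unique windows and 109 with at least 50%, called XUTs of unique sequence below. The 109 were 7.24% of the 1506 XUTs of that kind, and the 71 were 55.5% of 128. The 3 XUTs of the 2-micron plasmid all had reads and were not compared with a genome sequence.

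Ty elements, the retrotransposons of yeast, made up the largest repeated class. Of 47 XUTs with an ORF in an annotated Ty element, 33 had no read (70.2%), and all 33 had under 50% unique windows. So did 12 of the 14 Ty XUTs with reads, so few unique windows were common to both. Ty1 elements held 26 of the 33, of 32 XUTs in Ty1, and Ty2 elements held 7, of 12 XUTs in Ty2. The summed ORF length of the 33, each base counted once where ORFs overlap, was 24 to 291 nt with a median of 162 nt. Ty XUTs with reads included both short and much longer ones, such as XUT1723 with 78 nt and XUT1639 with 5181 nt. Most of the 33 lay opposite the gag and gag-pol genes of the element, which encode its capsid and its enzymes.

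Annotated telomeric regions held 14 of the 180 XUTs, of 15 XUTs found there (93.3%). Of these, 11 lay opposite a YRF1 gene, a helicase gene carried by the Y′ repeat of chromosome ends, and these 11 are all the XUTs opposite a YRF1 gene. XUT0464 and XUT0507 lay opposite YIL177C and YJL225C, which are Y′ helicase genes too. They were the longest of the 180, each with 10 ORFs over 788 nt and an ORF of 435 nt. XUT0256, opposite YEL077C and YEL076C-A, had 7 ORFs over 394 nt, with 5.58% unique windows. With 0 reads over 788 nt, a count of up to 3 reads, or 3.81 reads per kb, remains possible for XUT0464, where counting error alone is considered. None of its windows was unique, and how reads that match several places were counted is not given. The value is therefore no bound on ribosomes there. XUT0371, opposite the ammonium permease gene MEP1 and with 787 nt the nearest in length among XUTs with reads, had 54 reads in upf1 + CHX, 69 in upf1, 46 in WT + CHX and 9 in WT.

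Several members were exact copies of each other. Listed ORFs of identical sequence throughout grouped 35 of the 180 XUTs into 9 families of 2 to 6, and no XUT with reads belonged to any of these families. Families were sought from the sequences of the 180 alone. Those made up only of XUTs with reads were not counted, so the 35 have no share over all XUTs beside them. There were 3 families of 6, all with Ty1 gag or gag-pol genes opposite in most members, with 291, 267 and 147 nt of summed ORF length. A family of 5 with 169 nt, a family of 3 with 220 nt and a family of 3 with 66 nt lay opposite YRF1 genes. XUT0625 on chromosome 12 had the same ORF sequences as 5 XUTs opposite gag genes, although it overlapped no annotated Ty element, and its nearest CDS, YLR036C, was 964 nt away.

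The remaining 24 XUTs with under 50% unique windows were 35.3% of the 68 such XUTs outside Ty elements and telomeric regions. They included several by genes of multigene families. XUT1355 lay opposite the hexose transporter gene HXT9, with 11 ORFs over 585 nt and the widest span of the 180, 1246 nt from its first to its last ORF, and had 16.8% unique windows. XUT1167 and XUT1168 lay opposite SNZ3 and XUT1604 opposite SNZ2, a pair of vitamin B6 synthesis genes. XUT1002 and XUT1278 lay opposite the maltase genes MAL32 and MAL12, both without a unique window. XUT0947 lay opposite FLO1, a cell-surface flocculin, and XUT0015 and XUT0016 lay 1071 and 5098 nt from it. XUT0849 lay opposite the formate dehydrogenase gene FDH1 and XUT0374 opposite the polyamine transporter gene TPO2. Some of these genes also had a XUT with reads and under 50% unique windows opposite them. These were XUT0949 opposite FLO1 (17 reads), XUT0373 opposite TPO2 (2 reads) and XUT0850 opposite FDH1 (1 read).

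On chromosome 12, XUT0650, XUT0651 and XUT0652 lay 1068, 2068 and 662 nt from the nearest ribosomal RNA gene, and none had a unique window. XUT0652 also lay within a Ty1 element and was counted among the Ty XUTs above. XUT0650 had 9 ORFs over 480 nt, of which 308 nt lay opposite ASP3-2, an asparaginase gene present in several copies. Of the 10 XUTs within 10 kb of a nuclear rRNA gene, these were the 3 without a read, and 6 of the 7 with reads had at least 50% unique windows.

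Of the 44 XUTs without reads that lay within 30 kb of a chromosome end, 33 had under 50% unique windows. The share of XUTs without reads was 44 of 192 within 30 kb of an end (22.9%). Among XUTs with at least 50% unique windows it was 11 of 129 (8.53%), against 97 of 1376 farther from the ends (7.05%). Near the ends, the share was thus smaller among XUTs with at least 50% unique windows than over all XUTs. The share over all XUTs farther from the ends is not given.

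**Figure D2:**
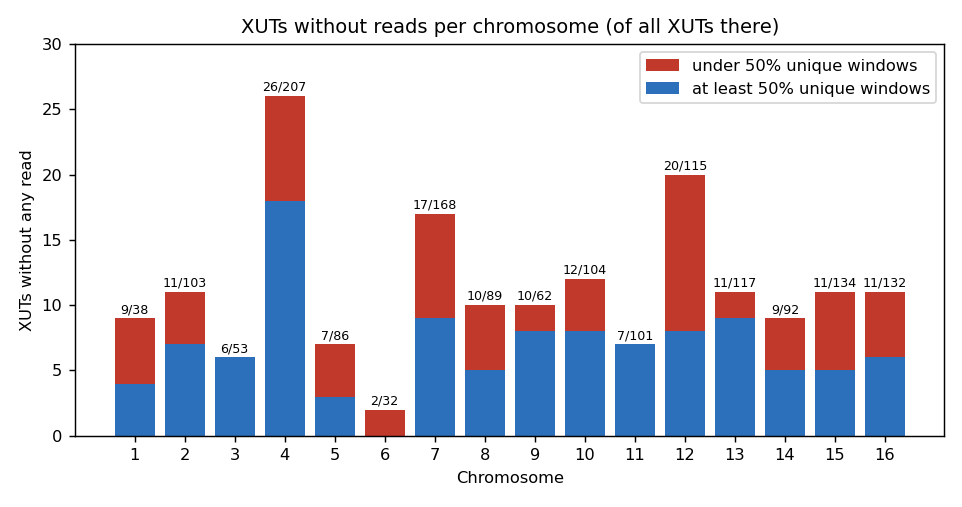
Number of XUTs without any read (y axis) on each nuclear chromosome (x axis), split by the share of unique 28-nt windows, with the number of all XUTs on the chromosome after the stroke. Chromosome 12 had 20 of 115, of which 12 had under 50% unique windows, and chromosome 4 had the most, 26 of 207.

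By chromosome, the share without reads was highest on chromosome 1, with 9 of 38 (23.7%), chromosome 12, with 20 of 115 (17.4%), and chromosome 9, with 10 of 62 (16.1%). It was lowest on chromosome 6, with 2 of 32 (6.25%), and chromosome 11, with 7 of 101 (6.93%). Among XUTs with at least 50% unique windows, chromosome 12 had 8 of 101 (7.92%), near the 7.24% of all chromosomes, while chromosomes 1 and 9 had 4 of 28 and 8 of 56, both 14.3%. The mitochondrial genome had 1 listed XUT, XUT1811, a single 69-nt ORF opposite ATP6, a subunit of ATP synthase, and it had no read. On the strands, 83 of 835 XUTs on the plus strand (9.94%) and 97 of 802 on the minus strand (12.1%) had no read.

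XUTs without reads were also short, which the rule bears on, since fewer bases can receive fewer reads. The 180 XUTs had a median of 3 listed ORFs and at most 14, against a median of 7 and at most 58 in XUTs with reads. Their summed ORF length had a median of 130 nt (15 to 788), against 345 nt (15 to 5181). Their longest ORF had a median of 75 nt, against 132 nt, and their ORFs spanned a median of 193 nt from first to last, against 547 nt. A single ORF was listed in 45 of the 180 XUTs (25%), against 76 of the 1457 with reads (5.22%), and 162 of the 180 had 5 or fewer (90%), against 612 of the 1457 (42.0%). Taken one by one, ORFs had a median length of 45 nt in XUTs without reads and 48 nt in XUTs with reads.

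**Figure D3:**
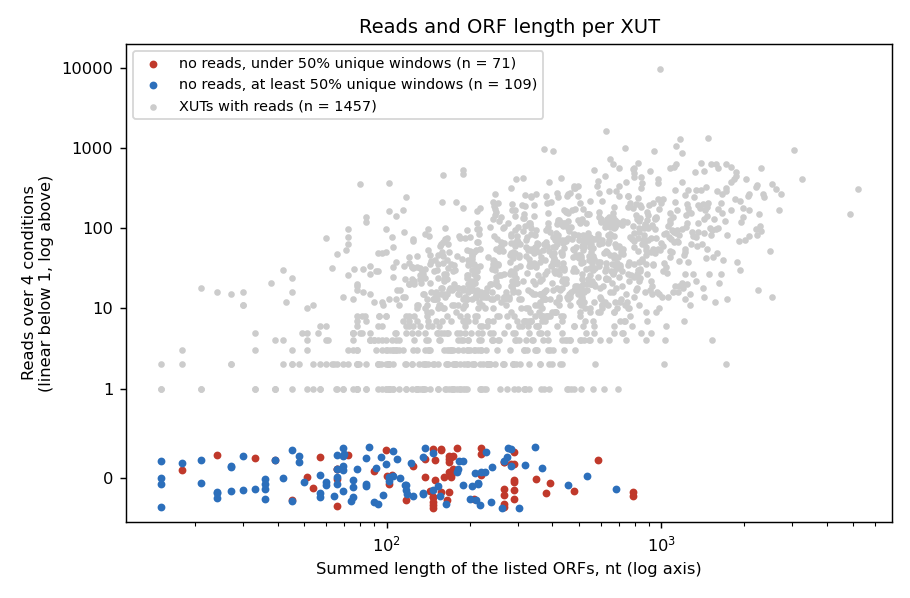
Reads summed over the 4 conditions (y axis, linear below 1 and logarithmic above) against the summed length of the listed ORFs in nt (x axis, logarithmic), 1 point per XUT; points of XUTs without reads are spread around 0 so that they can be seen. XUTs without reads end at 788 nt, while XUTs with reads reach 5181 nt.

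Among XUTs of unique sequence the lengths lay further apart. The 109 XUTs with at least 50% unique windows had a median of 2 ORFs over 93 nt, against 7 ORFs over 349 nt in the 1397 with reads. No read was found in 32 of 85 such XUTs with up to 60 nt of ORF (37.6%), in 44 of 275 with 61 to 150 nt (16.0%), in 26 of 362 with over 150 and up to 300 nt (7.18%), in 6 of 400 with over 300 and up to 600 nt (1.5%) and in 1 of 384 with over 600 nt (0.260%). The share declined at every step. Of XUTs with a single ORF 38 of 111 had no read (34.2%), and of those with over 5 ORFs 10 of 824 (1.21%).

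With under 50% unique windows the shares were larger in every length class. All 8 XUTs with up to 60 nt had no read, as did 23 of 31 with 61 to 150 nt, 33 of 57 with over 150 and up to 300 nt, 5 of 15 with over 300 and up to 600 nt and 2 of 17 with over 600 nt.

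**Figure D4:**
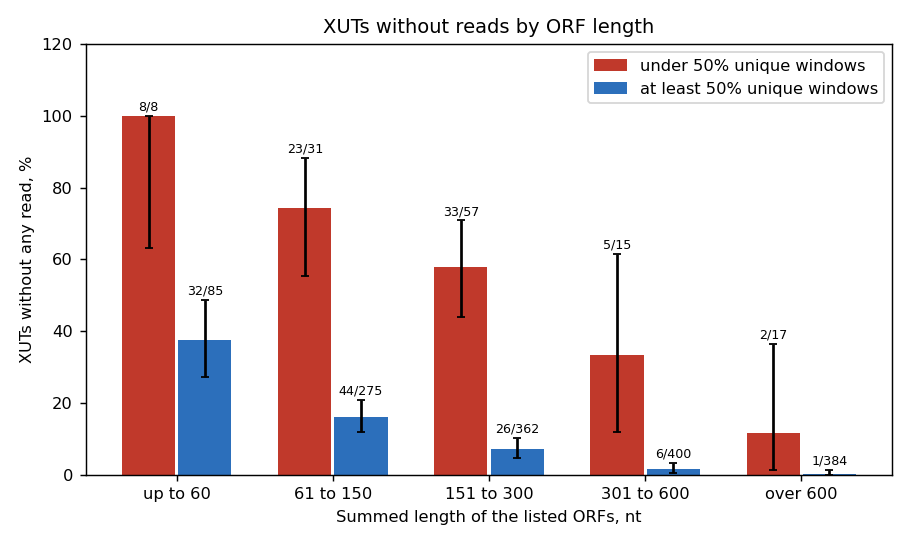
Share of XUTs without any read (y axis, %) by summed ORF length in nt (x axis), for XUTs with under 50% and with at least 50% unique 28-nt windows, with 95% exact binomial intervals as lines and counts above the bars. In both kinds the share declined with length, from 8 of 8 to 2 of 17 with repeated sequence and from 32 of 85 to 1 of 384 without.

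A count of 0 allows up to 3 reads, and set over the ORF length this gives the density that a XUT could still have had. XUTs with reads and at least 50% unique windows had a median of 71.0 reads per kb of ORF, and a lower quartile of 27.2. In these densities a read in overlapping ORFs can count more than once, while each base counts once. Of the 109 unread XUTs, 87 were long enough for their limit to lie below the median, and 46 for it to lie below the lower quartile. For the other 22, all short, the limit lay above the median, so a count of 0 is compatible with a density at the median of the XUTs with reads. The floor of 3 reads is 0.00267% of the 112451 reads in all XUT ORFs, and it covers counting error only. The limits depend on ORF length alone, and the rule keeps every XUT without reads out of the reference densities. These counts therefore describe lengths and test nothing.

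The longest unread XUTs of unique sequence lay opposite genes of varied function. XUT0400 (chr7:990977-991998) had 14 ORFs over 684 nt, of which 498 nt lay opposite RIE1, which encodes an RNA-binding protein. Its limit was 4.39 reads per kb. The 103 XUTs with reads and unique sequence within 10% of its length had 1 to 1653 reads with a median of 47. The rule leaves XUTs without reads out of this range and of those below. XUT0113, opposite YIH1 and the nearest in length with 683 nt, had 6 reads in upf1 + CHX, 1 in upf1, 11 in WT + CHX and 0 in WT. XUT1544 (chr13:219916-220676) had 7 ORFs over 535 nt, of which 460 nt lay opposite TSA1, a thioredoxin peroxidase. The 117 XUTs with reads and unique sequence of like length had 1 to 539 reads with a median of 37.

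XUT1709 (chr15:721999-722544) had 5 ORFs over 457 nt opposite HIS3, an enzyme of histidine synthesis. XUTs with reads and unique sequence of like length had 1 to 420 reads with a median of 40.5. BY4741 carries his3Δ1, a deletion allele of HIS3, and whether any of the 5 ORFs lies in the deleted part was not tested. No listed ORF lay opposite LEU2, URA3 or MET15 (MET17 in the annotation), the other marker genes with a deletion allele in the strain.

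XUT0518 had 4 ORFs over 366 nt, of which 166 nt lay opposite YJL163C. XUT0635 had 7 ORFs over 345 nt opposite RGR1, a subunit of the Mediator complex. XUT0700, 145 nt from SPO20, a membrane-fusion gene of spore formation, had an ORF of 249 nt, the longest among unread XUTs of unique sequence. XUT0697, opposite the transcription factor TFIID gene TAF11, had one of 204 nt, and XUT0287, opposite DOT6, a repressor of ribosome biogenesis genes, had one of 189 nt. XUT1024 had 7 ORFs spread over 1088 nt, with 229 nt of ORF opposite RDS1, a zinc-cluster regulator. It lay 2904 nt from the end of chromosome 3. XUT0160, opposite MAF1, a repressor of RNA polymerase III, had 7 ORFs over 274 nt, and XUT1305, opposite YHR125W, had 8 over 283 nt. XUT1734, opposite YOR389W, also had 8 ORFs, over 302 nt, with 68.2% unique windows.

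Some genes had more than 1 unread XUT of unique sequence opposite them. No share over all genes with several XUTs opposite is given, so these are single cases. The gene SSY1, an amino acid sensor at the plasma membrane, had 5 XUTs opposite it, and 3 of them, XUT1074, XUT1075 and XUT1076, with 180, 230 and 69 nt of ORF, had no read. The other 2 had few: XUT1077 had 2 reads, both in upf1 + CHX, and XUT1078 had 1 read in upf1 + CHX and 2 in WT + CHX. Both XUTs opposite each of MOT3, PKH1, POP3 and RDS1 had no read either. Of the 109 XUTs, 77 lay opposite a CDS, of 71 genes in all, and 26 of these genes had a further XUT opposite them that had reads.

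XUTs that lay opposite a CDS were common among the unread. An ORF overlapped a CDS on the other strand in 132 of the 180 (73.3%), against 952 of 1457 with reads (65.3%). A CDS on the same strand was overlapped by 0 of the 180, against 4 of the 1457, too few to compare. Longer XUTs lie opposite a CDS more often, so the comparison was made within length classes, at 50% unique windows or more. With up to 60 nt the share was 21 of 32 (65.6%), against 20 of 53 (37.7%). With 61 to 150 nt it was 30 of 44 (68.2%), against 116 of 231 (50.2%), and with over 150 and up to 300 nt it was 20 of 26 (76.9%), against 185 of 336 (55.1%). With over 300 and up to 600 nt it was 5 of 6, against 277 of 394 (70.3%), and the single one above 600 nt was XUT0400. The share was larger without reads in each of these 4 classes, while the 95% exact intervals of the shares overlapped in all 4. Transcripts are not replicates of a condition, so these differences carry no p-value.

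The other 32 of the 109 lay 18 to 2185 nt from the nearest CDS, with a median of 364 nt. Those of typical length among all unread XUTs opposite no CDS included XUT0172, 91 nt of ORF near HEM13 of haem synthesis, XUT0341, 95 nt near YGL088W, XUT0503, 99 nt near LYS1 of lysine synthesis, and XUT1620, 84 nt near MET4, an activator of sulphur amino acid genes. XUT0952, XUT0015, XUT1003 and XUT0463, with 90 to 102 nt, lay in repeated sequence, beside YBL100W-B, FLO1, PAU24 and YHR214C-B.

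GC content had a higher median in the unread XUTs, except in the longest class. Over the listed ORFs its median was 42.9%, against 38.9% with reads. At 50% unique windows or more it was 41.3%, against 38.8%. XUTs opposite a CDS had 41.7% (n = 77), against 39.7% (n = 926), and the others had 41.1% (n = 32), against 37.0% (n = 471). By length the medians were 41.8% against 39.2% with up to 60 nt, 41.7% against 38.2% with 61 to 150 nt, 40.9% against 38.2% with over 150 and up to 300 nt and 43.5% against 38.7% with over 300 and up to 600 nt. Above 600 nt the order was the other way, with 37.3% in XUT0400, the single unread XUT, against a median of 39.5%. The ranges of single XUTs overlapped in each of these classes.

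**Figure D5:**
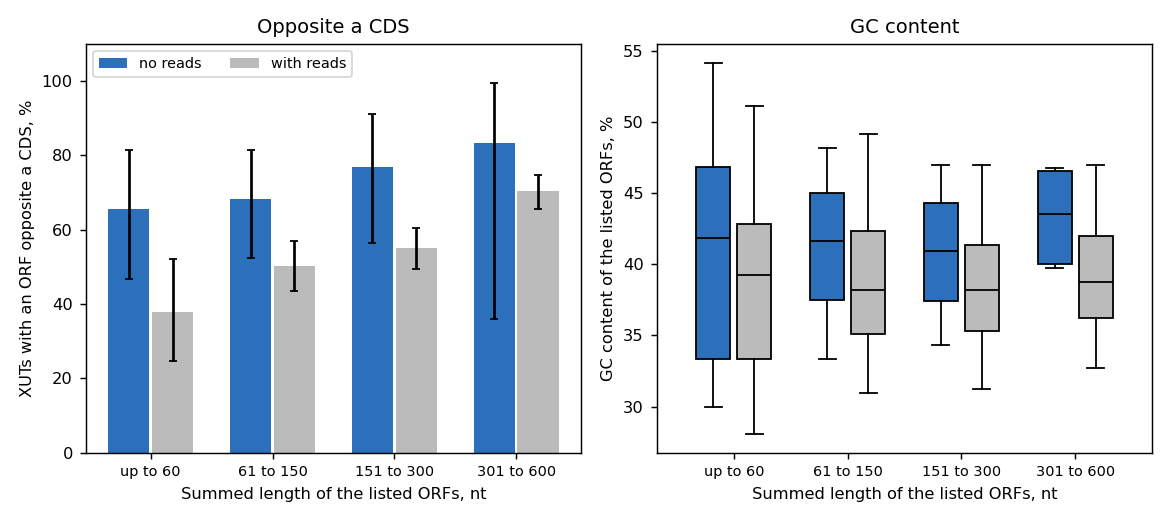
XUTs with at least 50% unique 28-nt windows, without reads and with reads, by summed ORF length in nt (x axes): left, share with an ORF opposite a CDS (%), with 95% exact binomial intervals as lines; right, GC content of the listed ORFs (%), with medians, quartile boxes and whiskers from the 5th to the 95th percentile. In each of the 4 length classes the unread XUTs had the larger share and the higher median, and the intervals of the shares overlap in all 4.

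Start and stop codons were compared last, at 50% unique windows or more. An A at position -3 from the start codon, the base most favoured there in yeast genes, preceded 24.8% of the 109 first ORFs, against 32.6% of the 1397 with reads. On the minus strand the ORF taken as first was the one whose last codon lay nearest the start of the XUT. Where ORFs overlap, it need not have the most upstream start codon. Over all ORFs it was 24.6% of 297, against 29.1% of 12787. Stop codons were TAA in 33.0% of ORFs, against 39.7%, TAG in 28.3%, against 25.2%, and TGA in 38.7%, against 35.1%. ORFs under 28 nt, shorter than 1 window, made up 27.6%, against 26.4%. No intervals were computed for the shares in this paragraph. They were also not matched for GC content, whose median was higher in the unread XUTs.

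Among the gene groups examined, 0 of the 21 XUTs opposite a meiosis or sporulation gene lacked reads, and 2 of the 14 opposite a hexose transporter gene did. These were XUT1355 opposite HXT9, described above, and XUT0445 opposite HXT4, with 36 nt of ORF. All 4 XUTs opposite galactose genes, all 4 opposite phosphate genes and all 3 opposite stress genes had reads. No XUT lay opposite a ribosomal protein or a seripauperin gene. Over all XUTs opposite any CDS, 132 of 1084 (12.2%) had no read. Another XUT lay opposite 6 of the 180 (3.33%), against 98 of the 1457 with reads (6.73%).

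Just outside the rule, 88 XUTs had 1 read and 84 had 2. The single read lay in upf1 + CHX for 31 XUTs, in upf1 for 15, in WT + CHX for 36 and in WT for 6. As shares these are 35.2%, 17%, 40.9% and 6.82%, beside 39.2%, 23.8%, 31.8% and 5.24% of all reads in the same order. XUTs with 1 read had a median of 3 ORFs over 133.5 nt, close to the 130 nt of those with none, and 79 of the 88 had at least 50% unique windows. The longest with 1 read were XUT0289 opposite DOT6 (13 ORFs, 695 nt, the read in WT + CHX), XUT0855 opposite THI21 (10 ORFs, 620 nt, upf1 + CHX), XUT1621 opposite AVT4 (12 ORFs, 565 nt, upf1), XUT1436 opposite STB6 (11 ORFs, 508 nt, WT + CHX) and XUT0936 opposite BDH1 (9 ORFs, 480 nt, upf1 + CHX). Just inside, XUT1385, a single 18-nt ORF opposite GPI14, had 0 reads in every condition but 1 read in the deposited pooled column.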

How the data were processed

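The authors deposited 1 table of listed ORFs of XUTs, with whole-number read counts per ORF in each of 4 conditions and in a pooled column, and a phase score given as a fraction from 0 to 1. The deposited counts are not scaled to depth, and the fraction was used only to check that ORFs without reads score 0. UMI-tools, cutadapt, HISAT2 2.2.0 and the build R64 are named, per the submitters' processing notes; how ORFs were listed, replicates merged and multiply matching reads treated is not given in the sources used here. In the R64 sequence all 13912 nuclear and mitochondrial ORFs began with ATG and ended before a stop codon; the 29 plasmid ORFs were not compared.

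Counts were summed over 4 conditions and all ORFs of a XUT, so a read shared by overlapping ORFs can count more than once. A CDS is opposite if it overlaps an ORF by at least 1 nt on the other strand. Uniqueness and limits were computed with Python 3.11.15, NumPy 2.4.6, pandas 2.3.3 and SciPy 1.17.1, and the window and length steps were tested on simulated sequence. Exact binomial (Clopper-Pearson) intervals and floors of 3 reads cover counting error only. The members, gene lists and comparisons were chosen with earlier results of these data known. XUTs were named by rank: most ORFs, longest summed ORF length, longest ORF, widest span, length nearest the median of those opposite no CDS, and opposite a listed gene. The split by unique windows and the remaining named XUTs were chosen after their values were seen. Alternatives covered the read threshold, the count column, each condition left out, ORF length, overlap and window length.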

Additional observations from a re-analysis of the deposited data

How the results depend on the processing

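Leaving out 1 condition gave 243 XUTs with no read without upf1 + CHX, 205 without upf1, 246 without WT + CHX and 188 without WT, and the pooled column gave 179, beside 180. Allowing up to 2 reads gave 352 XUTs and a median GC content of 41.3%. Keeping XUTs with at least 50% unique windows, a choice made after seeing the data, left 109 XUTs, a median summed ORF length of 93 nt, a median span of 123 nt, a median GC content of 41.3%, no-read shares of 16.0% at 61 to 150 nt and 7.18% at over 150 and up to 300 nt, 87 XUTs with a limit under the median density (154 over all) and 1 XUT opposite a listed gene, instead of 2. Allowing 1 or 2 reads gave 5 or 6 such XUTs. Weighted to the length classes of the unread XUTs, 50.3% of XUTs with reads lay opposite a CDS, instead of 65.3%. The cause of these shifts was not tested, beyond the smaller or larger sets of XUTs that the settings keep. With windows of 25 and 31 nt, 61 and 58 unread XUTs had no unique window, beside 60. No paired analysis was possible because the table merges the replicates of a condition, and leaving out single replicates was not run for the same reason.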
